A study of Mus musculus with 4 samples.

Results

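MHC class I molecules present peptides cut from a cell's own proteins to CD8+ T cells. Peptides are cut by the proteasome, pumped into the endoplasmic reticulum by the transporter Tap1-Tap2, loaded with the help of tapasin (Tapbp), and shown at the surface by a heavy chain held by β2-microglobulin (B2m). Interferons are known to raise the genes of this pathway in many cell types, endothelial cells (ECs) among them, partly through the activator Nlrc5, and the healthy brain is known for low class I levels. The 10 genes described here were chosen by symbol from the 23282 symbols of the count tables: the heavy chains H2-K1, H2-D1 and H2-T23, the light chain B2m, the transporter subunits Tap1 and Tap2, tapasin (Tapbp), the immunoproteasome subunits Psmb8 and Psmb9, and Nlrc5. All 10 were listed in each table.

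The libraries came from ECs of the dura mater, the outer meningeal membrane under the skull, and from ECs of the brain parenchyma, both of C57BL/6J mice that were 8 weeks of age, with no genetic change, injury or treatment named in the labels. There were 2 libraries for each tissue. CD31+ CD45- TER-119- cells were sorted after enzymatic digestion, and brain ECs had first been enriched with CD31 beads. RNA was counted from the 3′ ends of polyadenylated transcripts, and libraries held 13518973 to 16096203 counts. The labels do not say whether the libraries of a tissue came from separate mice, so p-values measure only the spread between these libraries, which may be technical. In bulk libraries, fewer cells of a type and less RNA per cell cannot be told apart. All 10 pan-endothelial markers checked were counted in the table, and their summed level was 9908 and 12450 CPM (counts per 1000000 counts) in brain ECs, against 8577 and 10930 CPM in ECs of the dura mater. The 6 brain barrier markers summed to 24010 and 22140 CPM in brain ECs against 3158 and 3260 CPM in dura mater ECs. Of these, 4 were lower in dura mater ECs (edgeR's quasi-likelihood test, adjusted p below 0.05), where 0.61% of all genes tested were called in either direction.

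Most class I genes were counted at higher levels in dura mater ECs, but no member passed the test across all genes. Summed over the 10 genes, they took 0.601% and 0.620% of all counts in brain ECs, against 1.02% and 1.02% in ECs of the dura mater. Most of these counts, in each library, were of H2-K1, H2-D1 and B2m, so the other members hardly enter the sum. Of the 9 members tested by edgeR, 9 had a log2 fold change (dura mater over brain) above 0, as did 49.8% of all 9347 genes tested. Their median log2 fold change was 0.69, against -0.01 over all genes tested. Of these, H2-T23 passed the filter on low counts only through the dura mater libraries, so its sign was fixed by the filter; without it, 8 of 8 were above 0 with a median of 0.60. In 7 of the 9, and in 6 of the 8 without H2-T23, both dura mater libraries lay above both brain libraries, a pattern seen in 26.2% of all genes tested. With Benjamini-Hochberg adjustment over all genes, edgeR called 0 members at an adjusted p under 0.05, where 0.61% of all genes were called. At an unadjusted p under 0.05, 2 members were higher in dura mater ECs, H2-D1 and Tap2, beside 7.04% of all genes. DESeq2 called 1 member, H2-D1, beside 8.67% of all genes, and limma-voom called 0, beside 80 of all 9347 genes tested. The members share regulators and partly neighbour each other on the chromosome, so their common sign is not 9 independent observations.

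**Figure D1:**
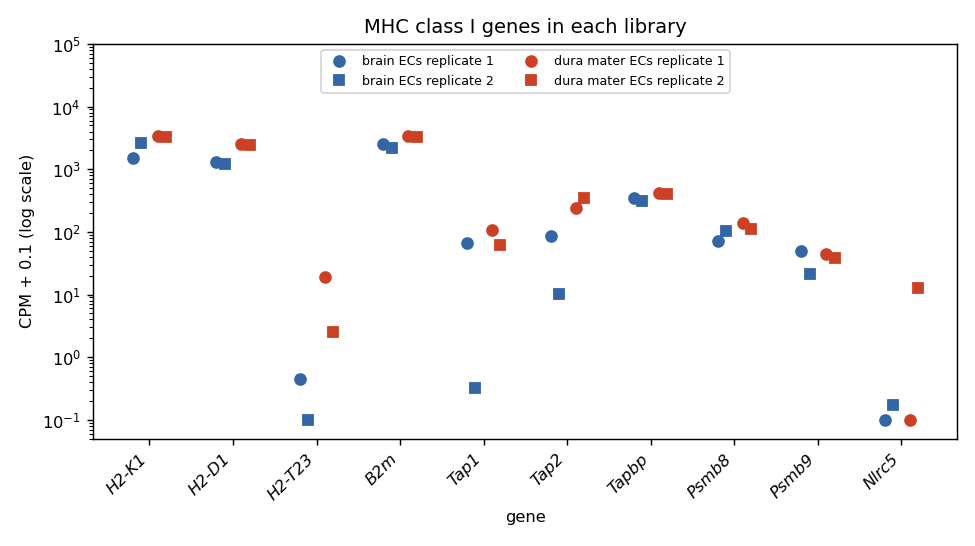
Level of each class I gene in each library, in CPM plus 0.1 on a log axis; circles are replicate 1 and squares replicate 2, blue for brain ECs and red for dura mater ECs. H2-K1, H2-D1, H2-T23, B2m, Tap2, Tapbp and Psmb8 lie higher in both dura mater libraries, whereas brain replicate 2 holds only 0.227 CPM of Tap1 and Nlrc5 is seen in a single dura mater library.

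Among the heavy chains that present peptide, H2-K1 and H2-D1 are the classical molecules of this strain, and H2-T23 encodes Qa-1, a non-classical molecule read by CD94/NKG2A receptors of natural killer and T cells. The gene H2-D1 (GRCm38, chr17:35262730-35267499, plus strand) held 19283 and 16112 counts in the brain libraries, against 33505 and 39314 for dura mater, or 1330 and 1218 CPM against 2498 and 2408 CPM. The lower dura mater library was 1.81-fold above the higher brain library, while replicates differed by 1.09-fold in brain and 1.04-fold in dura mater ECs. Its mean was 1274 ± 79.5 CPM in brain and 2453 ± 63.9 CPM for ECs of the dura mater (SD, n = 2), a log2 fold change of 0.95 (SE 0.27, 95% interval 0.30 to 1.59). The edgeR p was 0.0112 before and 0.328 after adjustment, and the adjusted p of DESeq2 was 0.0443. Its p was the smallest among the 9 members tested. The gene-wise biological coefficient of variation that edgeR assigned to it was 0.361, whereas the common value of these libraries was 1.39. Of the genes tested, 99.8% lay above H2-D1. The value was 0.352 for B2m and 0.380 for H2-K1, whose brain libraries differed by 1.70-fold.

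H2-K1 (chr17:33996017-34000347, minus strand) held 22177 and 34410 counts in the brain libraries, against 44938 and 54246 for dura mater, or 1530 and 2601 CPM against 3351 and 3323 CPM. Brain libraries differed from each other by 1.70-fold and dura mater libraries by 1.01-fold, and the groups did not overlap. Its log2 fold change was 0.69 (SE 0.33, 95% interval -0.10 to 1.49), with an edgeR adjusted p of 0.508. It was 0.31 without brain replicate 1 and 1.06 without brain replicate 2. Together H2-K1 and H2-D1 took 0.287% (95% Wilson interval 0.284 to 0.289) and 0.366% (0.363 to 0.369) of counts in the brain libraries. In the dura mater libraries they took 0.580% (0.576 to 0.584) and 0.581% (0.578 to 0.585). These intervals cover counting error only, since no molecular identifiers are named in the sources used here. H2-T23 (chr17:36029773-36032855, minus strand) held 5 and 0 counts in the brain libraries, against 257 and 40 for dura mater. The dura mater libraries differed from each other by 7.82-fold, and its log2 fold change of 5.13 had an SE of 3.27 and an edgeR adjusted p of 0.728.

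Heavy chain genes resemble each other, so their counts may share reads. Of the stretches of 50 bases in the last 300 bases of the annotated H2-K1 transcripts, 9.54% also occur in transcripts of other genes, and 7.70% occur in H2-D1. For H2-D1 the share was 13.5%, with 5.35% in H2-K1. For H2-T23 it was 50.6%, with 0% in H2-K1 and 0% in H2-D1, and the 75 genes that share these stretches are mostly not class I genes (Hdac1 and Map4 among them). When the 25 class I heavy chain symbols of the table were summed into 1 value, the sums were 44354 and 51273 counts in the brain libraries, against 83684 and 98519 for dura mater. The summed level was 3060 and 3876 CPM against 6240 and 6035 CPM. Its log2 fold change was 0.83 (SE 0.25) with an edgeR adjusted p of 0.371. The groups of this sum did not overlap. The sum holds H2-T9 and H2-T22, whose counts are nearly the same in each library, and with H2-T9 left out it was 43439 and 51083 against 81950 and 97255 counts (log2 fold change 0.82, edgeR adjusted p = 0.391).

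B2m (chr2:122147686-122153083, plus strand), the light chain without which most class I heavy chains do not reach the surface, lies outside the MHC. It held 36469 and 29153 counts in the brain libraries, against 46033 and 53844 for dura mater, or 2516 and 2204 CPM against 3433 and 3298 CPM. Both dura mater libraries were higher, with a log2 fold change of 0.51 (SE 0.25, 95% interval -0.10 to 1.12) and an edgeR adjusted p of 0.525. Ratios within a library do not depend on scaling between libraries. The ratio of H2-D1 to B2m counts was 0.529 and 0.553 in the brain libraries, against 0.728 and 0.730 for dura mater. Dura mater ECs thus had a log2 ratio 0.43 higher, with a pooled replicate SD of 0.03. With 2 libraries against 2, the exact two-sided permutation test cannot go below 0.333, which is the p it gave here. The ratio of H2-K1 to B2m was 0.608 and 1.18 in the brain libraries, against 0.976 and 1.01 for dura mater, so the groups overlapped, with a log2 difference of 0.23 (exact permutation p = 1). The ratio of H2-K1 to H2-D1 was 1.15 and 2.14 in the brain libraries, against 1.34 and 1.38 for dura mater, and it also overlapped (log2 difference -0.20, exact permutation p = 1). Without brain replicate 1 the H2-K1 to B2m difference turned to -0.25, and without brain replicate 2 the H2-K1 to H2-D1 difference turned to 0.24. With the 2 proteasome ratios given further on, 5 ratios were tested, and no p of theirs can pass the threshold in this design, before or after adjustment.

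**Figure D2:**
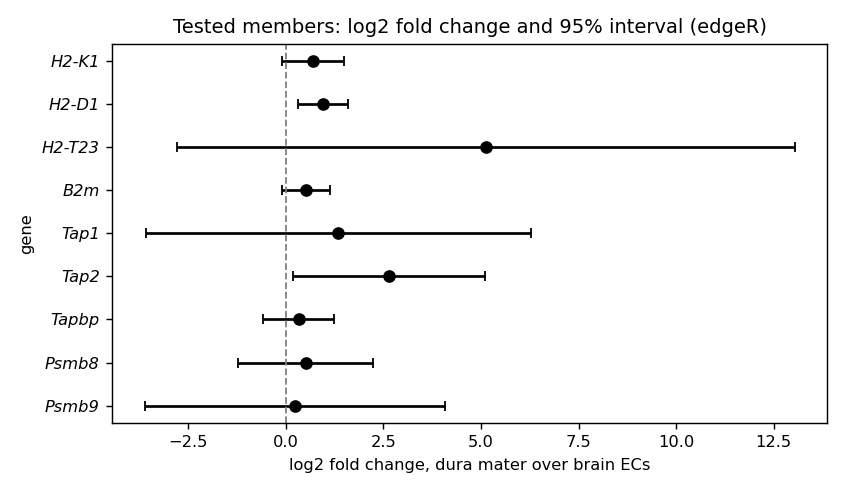
Log2 fold change (dura mater over brain ECs) of each tested class I gene, with the 95% interval of edgeR's quasi-likelihood fit as bars; the dashed line marks no difference. The 9 points lie right of the line, while only the intervals of H2-D1 and Tap2 leave it, before adjustment over all genes.

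Class I promoters carry a well-known arrangement of elements: an NF-kB-type enhancer and an interferon-stimulated element read by IRF factors, followed by the SXY module, whose X2 and Y boxes are read by CREB-family factors and NF-Y and on which Nlrc5 acts. Promoter windows of RefSeq (GRCm38.p6, 250 bases before to 50 bases after the start) were found for 8 of the 10 members, with none listed for Tap2 and Nlrc5. The windows of H2-K1 (the first of 2 listed starts), H2-D1, B2m and Tap1 are shown 5′ to 3′, because they hold most of the letters described next. They lie at chr17:34000298-34000597 (minus strand), chr17:35262844-35263143 (plus), chr2:122147437-122147736 (plus) and chr17:34187306-34187605 (plus). Capitals mark, in H2-K1 and H2-D1, matches to GGGGATTCC, TTTCNNTTC, TGACG and ATTGG in this order. In B2m they mark TTTCNNTTTC on the other strand, TGACG and ATTGG, and in Tap1 ATTGG on the other strand and TGACG. Left in lower case are a further ATTGG match on the other strand in H2-K1 and in H2-D1, and a further TGACG match on the other strand in B2m.
H2-K1: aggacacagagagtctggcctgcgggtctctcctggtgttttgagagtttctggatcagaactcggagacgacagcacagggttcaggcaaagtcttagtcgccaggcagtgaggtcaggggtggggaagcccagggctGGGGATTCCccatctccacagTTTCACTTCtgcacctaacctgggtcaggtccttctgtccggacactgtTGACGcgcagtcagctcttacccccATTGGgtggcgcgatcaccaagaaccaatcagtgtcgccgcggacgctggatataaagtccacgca
H2-D1: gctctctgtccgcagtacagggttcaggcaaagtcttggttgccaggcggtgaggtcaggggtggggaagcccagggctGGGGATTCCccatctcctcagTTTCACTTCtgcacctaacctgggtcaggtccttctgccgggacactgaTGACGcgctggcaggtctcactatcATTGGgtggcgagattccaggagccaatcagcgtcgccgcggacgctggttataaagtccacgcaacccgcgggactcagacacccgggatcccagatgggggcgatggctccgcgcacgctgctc
B2m: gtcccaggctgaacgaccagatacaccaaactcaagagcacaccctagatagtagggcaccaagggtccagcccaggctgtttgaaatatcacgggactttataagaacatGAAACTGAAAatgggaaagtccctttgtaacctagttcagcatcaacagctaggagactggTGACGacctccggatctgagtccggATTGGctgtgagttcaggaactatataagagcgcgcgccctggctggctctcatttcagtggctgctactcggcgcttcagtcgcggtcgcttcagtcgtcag
Tap1: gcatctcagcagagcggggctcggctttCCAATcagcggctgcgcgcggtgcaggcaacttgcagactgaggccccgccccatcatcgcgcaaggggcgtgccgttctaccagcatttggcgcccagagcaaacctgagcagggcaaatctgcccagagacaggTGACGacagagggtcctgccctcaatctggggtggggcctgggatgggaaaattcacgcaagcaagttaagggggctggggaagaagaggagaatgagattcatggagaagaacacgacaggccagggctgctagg

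Both strands of all 32851 windows were searched, with letters chosen after these sequences had been seen. GGGGATTCC, an NF-kB-type word, was in the windows of H2-K1 and H2-D1 and in 0.25% of all windows. TTTCNNTTC, an IRF-type word, was in H2-K1 and H2-D1 and in 7.52% of all windows, and the longer TTTCNNTTTC was in H2-T23 and B2m and in 3.44%. TGACG, the core of the X2 box, was in H2-K1, H2-D1, B2m, Tap1 and Psmb9 and in 20.8% of all windows. ATTGG, the reverse of the CCAAT core of the Y box, was in 7 of the 8 members with a window and in 37.4% of all windows. TGACG followed after 20 bases by ATTGG, a pattern that contains both of the preceding words, was in H2-K1, H2-D1 and B2m and in only 31 windows in all (0.0944%). The H2-K1 and H2-D1 windows share an identical run of 47 bases. The Tap1 and Psmb9 windows share 275 bases, since the genes start head to head on opposite strands, and the window of Psmb8 held none of these letters. A match is a description of the sequence, and no binding was measured.

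**Figure D3:**
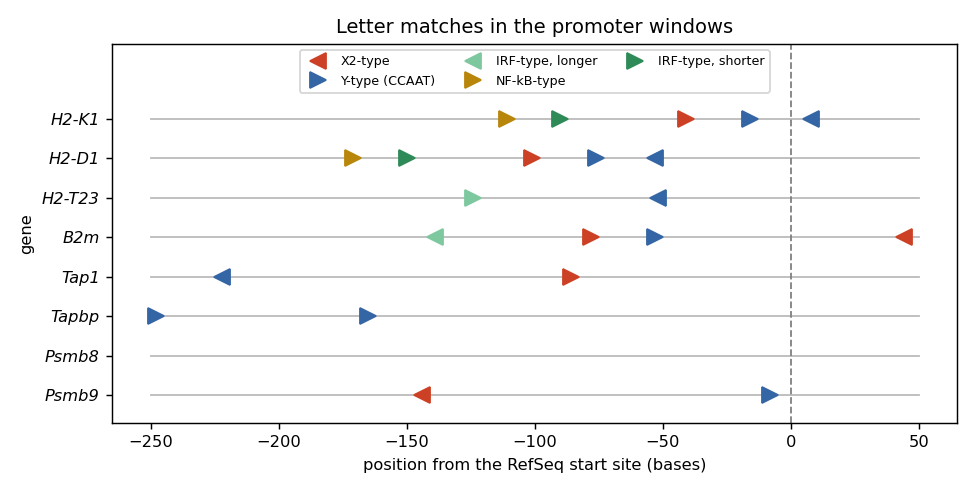
Position of each letter match, in bases from the RefSeq start site, in the promoter windows of 8 class I genes; triangles point right for a match on the gene's strand and left for the other strand. H2-K1 and H2-D1 carry the same order of matches, and X2-type and Y-type letters stand at the same spacing in H2-K1, H2-D1 and B2m.

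The peptide transporter and its partner differed in how evenly they were counted. Tap2 (chr17:34203527-34216321, plus strand), a subunit of the transporter, held 1228 and 133 counts in the brain libraries, against 3248 and 5760 for dura mater, or 84.7 and 10.05 CPM against 242 and 353 CPM. The lower dura mater library was 2.86-fold above the higher brain library, but the brain libraries differed from each other by 8.43-fold. Its log2 fold change was 2.65 (SE 1.02, 95% interval 0.18 to 5.11), with an edgeR p of 0.0392 before and 0.466 after adjustment. Tap1 (chr17:34187553-34197225, plus strand), the other subunit, held 956 and 3 counts in the brain libraries, against 1414 and 1020 for dura mater. Brain replicate 1 (66.0 CPM) lay within the dura mater range of 62.5 to 105 CPM, and brain replicate 2 stood apart at 0.227 CPM. The log2 fold change of Tap1 was 1.34 with an SE of 2.04 and an edgeR adjusted p of 1.00. Leaving out brain replicate 1, which leaves the low library as the only brain sample and assumes that it varies like dura mater ECs, brought the edgeR adjusted p to 0.00405 for Tap1 and 3.25e-07 for Tap2. Their log2 fold changes then stood at 7.82 and 4.81, and without brain replicate 2 they were 0.29 and 1.74 (edgeR adjusted p of 0.903 and 0.0932). The size of the Tap1 and Tap2 differences thus rests on which brain library is taken. Tap2 also passed with the newer dispersion estimate of edgeR (adjusted p = 0.0269) and with no filter on low counts (edgeR adjusted p = 0.0359).

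Tapbp (chr17:33915899-33929292, plus strand), which bridges the transporter and the empty heavy chain, held 5077 and 4121 counts in the brain libraries, against 5684 and 6632 for dura mater, or 350 and 312 CPM against 424 and 406 CPM. The dura mater libraries were higher by a log2 fold change of 0.33, with a 95% interval from -0.58 to 1.23 and an edgeR adjusted p of 1.00. In the annotation, 24.9% of its exon bases overlap a gene on the other strand (Gm19412) and 4.11% overlap Zbtb22 on its own strand. Of the 50-base stretches at the 3′ ends of Tap1 transcripts, 4.92% also occur in Tap2 transcripts. For Tap2, 14.1% of exon bases overlap Gm15821 and 4.36% overlap Gm20496, both on the other strand. Whether counting used strand is not given in the sources used here, so reads from bases overlapped on the other strand may not be told apart. Whether those bases lie near the counted 3′ ends was not checked.

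Psmb8 and Psmb9 are catalytic subunits that replace Psmb5 and Psmb6 in the immunoproteasome and change which peptides are cut. Psmb8 (chr17:34197721-34201454, plus strand) held 1033 and 1385 counts in the brain libraries, against 1842 and 1839 for dura mater, or 71.3 and 105 CPM against 137 and 113 CPM. The groups did not overlap, although the lower dura mater library was only 1.08-fold above the higher brain library, and the log2 fold change was 0.51 (SE 0.71, edgeR adjusted p = 1.00). It was 0.21 without brain replicate 1 and 0.21 without dura mater replicate 1. Psmb9 (chr17:34181987-34187764, minus strand) held 710 and 279 counts in the brain libraries, against 595 and 619 for dura mater, and the groups overlapped. Its log2 fold change was 0.23 (SE 1.59, edgeR adjusted p = 1.00), and it turned to -0.31 without brain replicate 2 and to -0.03 without dura mater replicate 1. The within-library ratio of Psmb8 to Psmb5 was 2.56 and 18.2 in the brain libraries, against 4.29 and 3.07 for dura mater. The 2 brain values lay on either side of the dura mater values, and the log2 difference was -0.91 (exact two-sided permutation p = 1), turning to 0.50 without brain replicate 2. The ratio of Psmb9 to Psmb6 was 0.841 and 0.129 in the brain libraries, against 0.481 and 0.277 for dura mater. Its log2 difference was 0.15 (exact two-sided permutation p = 1), and it turned to -1.21 without brain replicate 2 and to -0.25 without dura mater replicate 1. Psmb9 shares 5.79% of its exon bases with Tap1 on the other strand, and Psmb8 shares 14.7% with Gm20496, also on the other strand.

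Nlrc5 (chr8:94434356-94527272, plus strand), the activator of class I transcription, held 0 and 1 counts in the brain libraries, against 0 and 208 for dura mater. It was seen in dura mater replicate 2 alone beyond a single count, did not pass the filter on low counts and was not tested. A count of 0 allows up to 3 counts in a library, so lower levels of Nlrc5 were not detectable at this depth. This bound covers counting error only, not the spread between libraries. Symbols with a count numbered 9350 and 9746 in the brain libraries, against 10246 and 11803 for dura mater, the most in dura mater replicate 2.

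Beyond these 10 genes, 81 further genes of the pathway were read from lists, and 60 of them were tested. By edgeR 0 of the 60 passed an adjusted p of 0.05, beside 0.61% of all genes, and 7 (11.7%) had an unadjusted p under 0.05, beside 10% of all genes. DESeq2 called 7 (11.7%, 5 higher and 2 lower in dura mater ECs), beside 8.67% of all genes. By limma-voom 2 of the 60 were called, beside 80 of all 9347 genes tested. Of 22 other heavy chains, 12 were at 0 counts in each library and 8 were tested. The log2 fold change was above 0 in 8, beside 49.8% of all genes tested, with a median of 1.32. In only 5 of the 8 did both dura mater libraries lie above both brain libraries, beside 26.2% of all genes tested. H2-Q4, H2-T9 and H2-T22 are among these 5. H2-Q4 passed the filter on low counts only through the dura mater libraries, so its sign was fixed by the filter, though it is among the 8 and in the median. H2-T22 held 915 and 190 counts in the brain libraries, against 1735 and 1264 for dura mater. H2-T9 held the same numbers but for 1 count in 1 library. The pair therefore cannot be counted as separate genes, although both are among the 8 and in the median. H2-Q4, a further non-classical heavy chain, held 4 and 3 counts in brain ECs against 20 and 112. The log2 fold change of H2-T22 was 1.41, or 2.80 and 0.66 without brain replicates 1 and 2. The edgeR adjusted p was 0.896 for H2-T22 and 0.797 for H2-Q4. Of the class I-like molecules, which use the same fold for other tasks, 3 were tested, with a log2 fold change above 0 in 1 and below 0 in 2. Fcgrt, the neonatal Fc receptor heavy chain that binds IgG and pairs with B2m, held 8036 and 8013 counts in the brain libraries, against 1808 and 4245 for dura mater (log2 fold change -1.55, SE 0.46, edgeR adjusted p = 0.358, DESeq2 adjusted p = 0.0330). The edgeR adjusted p of Fcgrt was 0.0241 and 0.0444 without brain replicates 1 and 2, where dura mater ECs alone supply the spread, and 0.771 and 0.250 without dura mater replicates 1 and 2. Hfe, which controls iron uptake, held 632 and 703 against 0 and 509 (edgeR adjusted p = 1.00).

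Helpers of peptide loading had 6 of 8 tested genes with a log2 fold change above 0, beside 49.8% of all genes tested, and a median of 0.64. Erap1 passed the filter on low counts only through the dura mater libraries, so its sign was fixed by the filter. It is among the 6 and in the median. Hspa5 (BiP), the main chaperone of the endoplasmic reticulum, held 5306 and 11312 counts in the brain libraries, against 29769 and 31310 for dura mater. Its log2 fold change was 1.76 (SE 0.46), with an adjusted p of 0.271 by edgeR, 0.00215 by DESeq2 and 0.0261 by limma-voom. The change was 1.23 and 2.44 without brain replicates 1 and 2, and 1.51 and 1.84 without dura mater replicates 1 and 2. Pdia3 (ERp57), the thiol oxidoreductase of the loading complex, held 1134 and 1067 counts against 3021 and 2494 (log2 fold change 1.25, edgeR adjusted p = 0.537). Among other immunoproteasome and PA28 genes, Pomp, a proteasome assembly chaperone, was counted lower in dura mater ECs, with 14536 and 14634 against 6145 and 8250 counts (log2 fold change -1.13, SE 0.32, edgeR adjusted p = 0.327, DESeq2 adjusted p = 0.0274). Psme1, a subunit of the PA28 activator, held 641 and 12 counts in the brain libraries, against 1175 and 1627 for dura mater. Its log2 fold change was 2.046 with an edgeR adjusted p of 0.929. The change was 6.44 and 1.015 without brain replicates 1 and 2, and 2 and 1.935 without dura mater replicates 1 and 2. The constitutive catalytic subunits had a median log2 fold change of 0.07 over 3 genes. Psmb5 held 403 and 76 counts against 429 and 599, and Psmb7 held 1301 and 586 against 1204 and 839 (edgeR adjusted p = 1.00 for each). The 11 structural subunits of the 20S core had a median of -0.12, with 5 above and 6 below 0. Psmb1 held 2434 and 3543 counts in brain ECs against 1043 and 2269, and Psma6 held 1075 and 1510 against 318 and 481 (edgeR adjusted p of 0.688 and 0.699).

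**Figure D4:**
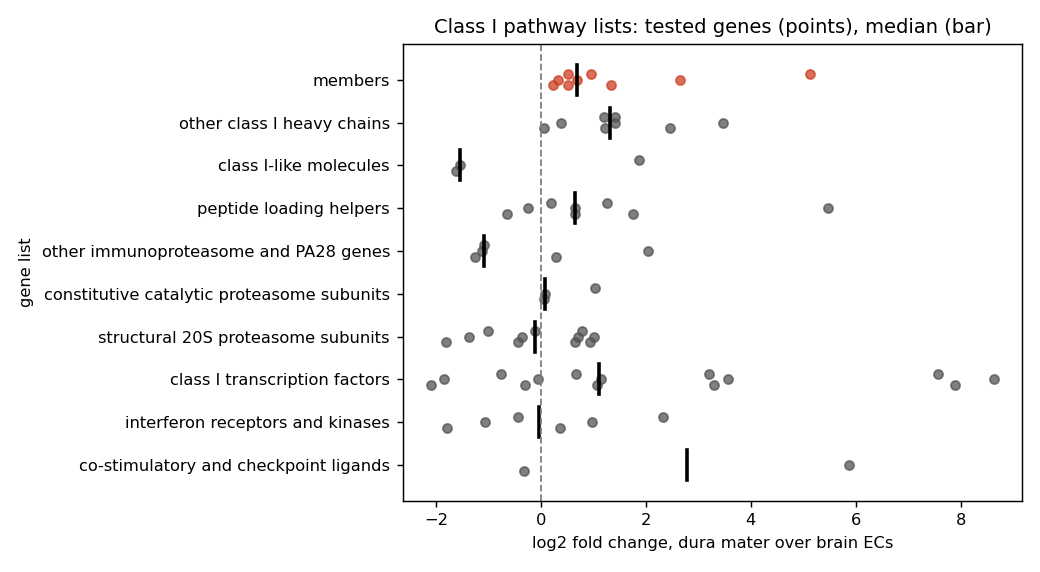
Log2 fold change (dura mater over brain ECs) of every tested gene of each class I pathway list; points are genes, vertical bars are list medians, and the class I genes described in the text are in red. The members' median is 0.69, and the structural 20S subunits scatter around 0 with a median of -0.12. The transcription factor list reaches the highest values, in genes that passed the filter on low counts only through the dura mater libraries.

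The list of class I transcription factors, which also holds the inhibitor Socs1, held the differences closest to the threshold. Irf1, an interferon-induced activator of class I promoters, held 6790 and 3974 counts in the brain libraries, against 69265 and 39760 for dura mater, or 468 and 300.4 CPM against 5165 and 2435 CPM. Its log2 fold change was 3.31 (SE 0.48), with an adjusted p of 0.0540 by edgeR, 2.46e-13 by DESeq2 and 0.0319 by limma-voom. Over the alternatives the adjusted p of Irf1 ran from 4.86e-22 (edgeR, newer dispersion estimate) to 0.0645, and it missed the threshold with RLE scaling, with library size scaling, with the heavy chains summed and with the prior count of 0.5, which does not enter the p. The log2 fold change of Irf1 was 3.63 and 2.97 without brain replicates 1 and 2. Without dura mater replicates 1 and 2 it was 2.52 and 3.73. Such fits leave 1 library in a tissue, so the other tissue alone supplies the spread. Irf8, a factor best known from myeloid cells and B cells, held 5 and 7 counts in the brain libraries, against 1687 and 1527 for dura mater (log2 fold change 7.58, SE 1.54, adjusted p of 0.147 by edgeR and 1.05e-06 by DESeq2). In the same list, and named after their values were seen, Stat2, which carries the type I interferon signal, held 0 and 2 counts against 1546 and 905. Socs1, a feedback inhibitor of cytokine signalling, held 1 and 0 counts against 536 and 683. Set against 3 counts per brain library, the mean dura mater level was at least 394-fold higher for Stat2 and 189-fold for Socs1. This bound covers counting error in the brain libraries only, not the spread between libraries. The edgeR adjusted p-values were 0.271 and 0.466, and the DESeq2 adjusted p-values 7.96e-06 and 0.00325. With brain replicate 1 or 2 left out, so that dura mater ECs alone supply the spread, the edgeR adjusted p was 0.000529 or 0.000201 for Irf8 and 0.00195 or 0.000141 for Stat2. With dura mater replicate 1 or 2 left out it was 0.771 or 0.441 for Irf8 and 0.771 or 0.401 for Stat2. Of the 14 genes tested in this list, 9 had a log2 fold change above 0 and 5 below it, with a median of 1.10, where 49.8% of all genes tested were above 0. Irf8, Stat2 and Socs1 passed the filter on low counts only through the dura mater libraries, so their signs were fixed by the filter. They are among the 9 and in the median, so neither value can be read against the share over all genes.

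Several marker groups stood at different levels in the tissues beside the class I genes. Of all genes tested, edgeR called 0.61% at an adjusted p under 0.05 and DESeq2 8.67%, both directions together. An unadjusted edgeR p under 0.05 was found in 10% of all genes tested. Genes known to respond to tissue handling and cell stress, such as Fos, Egr1 and Ier3, summed to 4537 and 5003 CPM in brain ECs, against 24270 and 28100 CPM in ECs of the dura mater, and edgeR called 5 of the 10 as higher. The 17 leukocyte markers summed to 57.8 and 120 CPM in brain ECs, against 350 and 251 CPM in ECs of the dura mater, with 8 tested and 0 called by edgeR (3 at an unadjusted p under 0.05 and 3 by DESeq2). Most of the dura mater sum came from the class II genes Cd74, H2-Aa, H2-Ab1 and H2-Eb1, with 1108 and 1254 counts of Cd74 in dura mater ECs against 8 and 22; these 4 genes were named after their values were seen. The defining leukocyte marker Ptprc (CD45) held 1 and 3 counts in the brain libraries, against 4 and 3 for dura mater, and Cd3e and P2ry12 were at 0 in each library. Other leukocyte markers, named after their values were seen, were uneven: Fcer1g held 6 and 17 counts against 610 and 173, and Itgam 1 and 2 against 87 and 0. Csf1r (4 and 646 against 28 and 9), C1qa (436 and 1 against 2 and 25) and C1qc (0 and 797 against 291 and 2) were each highest in a single brain library. The 6 fibroblast markers summed to 7.38 and 50.7 CPM in brain ECs against 337 and 354 CPM, with 0 of 4 tested called by edgeR (2 at an unadjusted p under 0.05 and 3 by DESeq2). The 7 mural markers summed to 621 and 1045 CPM in brain ECs, against 1119 and 579 CPM in ECs of the dura mater, and so overlapped. The 9 neural and glial markers summed to 103 and 0.529 CPM against 206 and 25.2 CPM, with Aqp4 at 0 in each library. The 5 erythroid markers summed to 18010 and 25690 CPM in brain ECs against 1496 and 762 CPM, and edgeR called 3 of them as lower in dura mater ECs. The part of handling, of cells other than ECs and of red cell RNA in the class I differences was not tested.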

How the data were processed

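Counts per gene and library were deposited by the authors as whole numbers, neither scaled nor filtered. Libraries were made from sorted ECs with a 3′ QuantSeq kit and sequenced on a NextSeq 500. The methods name TopHat and cufflinks, and the labels list Bowtie2, edgeR and mm10 without a role; the counting step, annotation, use of strand and molecular identifiers are not given in the sources used here. Libraries held 13518973 to 16096203 counts, and 35 symbols stood on more than 1 line, each tested as its own gene.

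Groups came from the sample titles. Dura mater ECs were compared with brain ECs by the quasi-likelihood test of edgeR 4.0.16 (R 4.3.3) on all genes passing filterByExpr, with TMM scaling, no term but tissue, and p-values adjusted by Benjamini-Hochberg over 9347 genes. The test of cufflinks works on alignments and was not run. Log2 fold changes use a prior count of 2, and the SE is the size of that change over the root of its F statistic. CPM are counts per 1000000 of the TMM-adjusted library size. A lower bound of a fold was the mean dura mater CPM against 3 counts per brain library, and it covers counting error only. DESeq2 1.42.0, limma-voom (limma 3.58.1), edgeR's newer dispersion estimate, other scalings and filters, a prior count of 0.5, a replicate block, summed heavy chains and leaving out each library in turn were alternatives; those for the ratios, for single pathway genes and for the heavy chain sum without H2-T9 were chosen after seeing the data. Scripts were tested on simulated data. Ratios were given where both genes had at least 10 counts in every library, which left out Tap1 to Tap2.

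The members and lists were chosen with earlier results of these data known. All 10 members were named; from each other list, genes past the threshold, at most 4, or, where none passed, the 2 tested genes with the smallest unadjusted p. Gene positions are from GENCODE M21 (GRCm38), and promoter windows from RefSeq; pandas 2.3.3 and matplotlib 3.10.9 served for sequences and figures.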

Additional observations from a re-analysis of the deposited data

How the results depend on the processing

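With 2 libraries per tissue and a common biological coefficient of variation of 1.39, the intervals of most members spanned 0. Nlrc5 and H2-T23 were scarce in brain ECs and uneven between the dura mater libraries. The count of all genes differing was 57 with edgeR and became 810 with DESeq2, 306 with the newer edgeR estimate, 326 with no filter on low counts, 141 with at least 10 counts in every library and 80 to 740 when 1 library was left out (740 without brain replicate 1 and 701 without brain replicate 2). Members differing numbered 0 with edgeR and 1 with DESeq2 (H2-D1), with the newer edgeR estimate (Tap2) and with no filter (Tap2), and 0 to 2 when 1 library was left out, with 2 (Tap1 and Tap2) only without brain replicate 1. Other pathway genes differing numbered 0 with edgeR, 7 with DESeq2, 2 with limma-voom, 3 with the newer estimate, 1 with upper-quartile scaling, 4 with no filter, 2 with at least 10 counts in every library and 1 to 5 when 1 library was left out.

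With the titles' replicate number as a replicate block, 224 of all genes, 0 members and 2 other pathway genes differed by edgeR. Same-numbered libraries did not deviate together (correlation of deviations -0.02). The titles give only the number, and this correlation does not settle whether such libraries share a batch. The median of the members stayed within its replicate spread under each alternative run, from 0.51 with heavy chains summed to 0.94 without brain replicate 1.

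Of 130 combinations of a member and an alternative, 123 kept direction and side of the threshold, 5 passed it and 2 turned. With 1 library left out, Psmb9 ran from -0.31 to 0.92, Psmb7 from -0.52 to 0.63 and Cd40 from -1.37 to 6.01 in log2 fold change. Cd40, at -0.32 with edgeR, also turned to 2.84 with limma-voom and 2.26 with the replicate block. Log2 ratio differences ran from -2.33 to 0.50 for Psmb8 to Psmb5, -1.21 to 1.496 for Psmb9 to Psmb6, -0.25 to 0.71 for H2-K1 to B2m, -0.65 to 0.24 for H2-K1 to H2-D1 and 0.40 to 0.46 for H2-D1 to B2m when 1 library was left out. The cause of these changes was not tested.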

Other observations

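Interferon receptors and ligands that T cells read on presenting cells were also checked. Of 7 interferon receptors and kinases, 6 were tested by edgeR, with 3 log2 fold changes above 0, 3 below and a median of -0.04. Ifnar1, a chain of the type I interferon receptor, held 2449 and 1846 counts in the brain libraries, against 662 and 642 for dura mater (log2 fold change -1.80, SE 0.76, edgeR adjusted p = 0.466). Ifnar2, its partner chain, held 3025 and 3652 against 1338 and 2114 (log2 fold change -1.08, SE 0.53, edgeR adjusted p = 0.525). The groups did not overlap for either chain, and neither difference passed the test.

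Of 6 co-stimulatory and checkpoint ligands, Cd80, Cd86 and Pdcd1lg2 were at 0 counts in each library, where up to 3 counts per library would go unseen. Icosl, the ligand of ICOS on activated T cells, held 0 and 2 counts in the brain libraries, against 228 and 129 for dura mater. Its edgeR adjusted p was 0.577. Set against 3 counts per brain library, its mean dura mater level was at least 57.4-fold higher, a bound that covers counting error only. Icosl passed the filter on low counts only through the dura mater libraries, so its sign was fixed by the filter. Cd40, which licenses antigen-presenting cells, held 1 and 442 counts in the brain libraries, against 142 and 264 for dura mater, and so overlapped (edgeR adjusted p = 1.00).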
